A study of Mus musculus with 1753 samples.

Results

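A set of 9 genes that are used to recognise fibroblast progenitors was followed through the fibroblasts and mural cells of mouse skeletal muscle. They were Cd34, Ly6a, Thy1, Pi16, Dpt, Dpp4, Cd55, Hic1 and Gli1, taken by symbol for their use as markers. All 9 were found among the 46517 genes of the count table, and all 9 passed the filter on low counts in each comparison below.

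Fibro-adipogenic progenitors are interstitial cells of muscle that carry PDGFRα, CD34 and Sca-1, the product of Ly6a. They support the muscle stem cells after injury and can form adipocytes or matrix-producing fibroblasts. Across many tissues, fibroblasts with Pi16 and Dpt have been described as a shared, universal state, and in fat and skin DPP4 and CD55 on the surface mark an early interstitial progenitor. Hic1 and Gli1 are transcription factor genes whose expression has been used to trace quiescent mesenchymal progenitors.

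Single cells from hindlimb muscle of male mice aged 10 to 20 weeks had been sorted on PDGFRα or PDGFRβ, or on a fluorescent reporter, and against the endothelial protein CD31, and copied to cDNA with Smart-seq2, which carries no molecular identifiers. The labels gave 1753 cells in 10 clusters, drawn by the authors from these counts, and 5 strain labels. C57BL6 is an inbred strain (373 cells). Acta2GFP (157 cells), Cspg4dsRED (181 cells) and PdgfrbGFP (630 cells) are lines with a fluorescent protein under the promoter of the named gene, and the PdgfraGFP - PdgfrbGFP pool (412 cells) holds cells of a pair of such lines. Reporters thus decide in part which cells were taken, and elastase had been added to the digestion of the Acta2GFP muscle only. The labels name no animal, and each strain label was taken as 1 replicate. No cell carried a treatment. Endomysial cells, named after the connective tissue around single fibres, made up clusters 1, 3, 5, 6 and 8 (1116 cells). The authors expected these clusters to hold fibro-adipogenic progenitors and perivascular fibroblasts as well, which they left to later work. Perimysial cells, from the sheaths around fibre bundles, made up clusters 2 and 9 (328 cells), paramysial cells cluster 4 (60 cells) and mural cells, which wrap vessels, cluster 7 (187 cells). Cluster 10 (62 cells) has no class name.

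A cell had 46097 to 1055869 counts (median 258251), and the class medians ran from 156959 in mural cells to 595321 in paramysial cells. Each cell was scaled to 500000 counts without spike-ins. A gene was called detected in a cell at 100 scaled counts or more. A single read was too low a bar, since at 1 count Cd34 was present in 90.4% of mural cells and Ly6a in 74.3%. Labels were checked against marker lists. Of 8 fibroblast markers, 8 were detected in more than 50% of endomysial cells and 1 in mural cells, and of 8 mural markers 6 were in mural cells and 0 in any other class. No endothelial, immune or glial marker reached 5% of cells in any class. Des, which mural cells also express, was the myogenic marker found most often, in 81.3% of mural cells, and Acta1, of the muscle fibre itself, was found in 17.0% of endomysial and 26.7% of paramysial cells.

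Positions are given on GRCm38 as annotated by GENCODE M21. Cd34 lies at chr1:194938819-194961279 on the plus strand, Ly6a at chr15:74994877-74998031 on the minus strand and Thy1 at chr9:44043384-44048579 on the plus strand. Pi16 lies at chr17:29317680-29330593 (plus), Dpt at chr1:164796644-164824266 (plus), Dpp4 at chr2:62330073-62412231 (minus) and Cd55 at chr1:130439027-130462744 (minus). Hic1 lies at chr11:75164565-75169519 and Gli1 at chr10:127329882-127341974, both on the minus strand. All 9 are protein-coding. Antisense genes overlap 2.03% of the exonic bases of Cd34, 3.49% of Pi16, 3.67% of Dpp4, 2.10% of Cd55 and 6.55% of Gli1. Reads from such stretches cannot be assigned to 1 strand, as the use of strand in the counting is not given in the sources used here.

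Promoter windows of 300 bases, from 250 before to 50 after the RefSeq start (GRCm38.p6), were at hand for 6 of the 9 genes. Those of Pi16, Dpp4 and Cd55 are shown because these genes were high together in cluster 1, and that of Dpt because it belongs with them by use but was spread more evenly over the endomysial clusters. The windows lie at chr17:29318632-29318931 on the plus strand (Pi16, at a start inside the GENCODE span), chr2:62412182-62412481 on the minus strand (Dpp4), chr1:130462695-130462994 on the minus strand (Cd55) and chr1:164796413-164796712 on the plus strand (Dpt). Capitals mark matches on either strand to 3 core promoter motifs, the TATA box (TATAAA), the CCAAT box and the GC box (GGGCGG).
Pi16: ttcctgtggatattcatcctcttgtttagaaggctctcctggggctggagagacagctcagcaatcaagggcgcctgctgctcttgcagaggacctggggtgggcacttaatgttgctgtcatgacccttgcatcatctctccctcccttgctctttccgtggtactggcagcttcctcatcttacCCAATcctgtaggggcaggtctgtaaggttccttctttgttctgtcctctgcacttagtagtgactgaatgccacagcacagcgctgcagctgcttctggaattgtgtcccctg
Dpp4: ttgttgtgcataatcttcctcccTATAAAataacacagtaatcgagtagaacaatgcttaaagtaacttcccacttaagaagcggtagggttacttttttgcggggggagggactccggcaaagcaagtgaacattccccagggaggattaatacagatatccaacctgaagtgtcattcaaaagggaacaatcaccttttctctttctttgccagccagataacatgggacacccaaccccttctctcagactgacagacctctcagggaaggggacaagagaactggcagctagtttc
Cd55: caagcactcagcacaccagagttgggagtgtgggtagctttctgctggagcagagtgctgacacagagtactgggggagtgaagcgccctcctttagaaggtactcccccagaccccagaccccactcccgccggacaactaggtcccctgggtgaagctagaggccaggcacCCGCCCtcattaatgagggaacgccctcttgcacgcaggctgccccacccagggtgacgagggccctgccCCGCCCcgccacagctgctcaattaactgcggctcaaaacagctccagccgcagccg
Dpt: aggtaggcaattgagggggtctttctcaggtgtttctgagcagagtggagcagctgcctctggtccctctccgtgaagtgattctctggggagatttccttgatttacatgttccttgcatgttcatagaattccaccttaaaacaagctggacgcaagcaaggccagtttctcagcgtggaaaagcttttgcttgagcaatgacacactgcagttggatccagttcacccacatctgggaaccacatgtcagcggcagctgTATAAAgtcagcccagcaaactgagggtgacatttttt

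No motif was in all 4 windows. Counted from the start site at 0, Pi16 matched CCAAT at -64, Dpp4 TATAAA at -227, Cd55 GGGCGG at -77 and -7, and Dpt TATAAA at 12, past the start. These are matches of letters only, and whether they act as promoter elements was not tested. Of 32851 promoter windows of the same length, 13.6% held a match to TATAAA, 37.4% to CCAAT and 35.7% to GGGCGG. GC content was 53.3% in Pi16, 45.3% in Dpp4, 63.3% in Cd55 and 48.7% in Dpt, against a median of 52.7% over all windows. An AP-1 site, TGANTCA (7.81% of windows), and a GLI site (0.253%), searched as GACCACCCA, were not in the windows of the 6 genes.

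Endomysial cells carried the surface markers of fibro-adipogenic progenitors in most cells, less often in Cspg4dsRED. Cd34, which encodes a sialomucin, was detected in 97.0% of endomysial cells, in 85.0% of paramysial and 96.8% of cluster 10 cells, but in 26.5% of perimysial and 1.60% of mural cells. In the 51 endomysial cells of Cspg4dsRED the share was 72.5%, against 95.7% to 99.6% in the other strain labels. Of these 51 cells 46 were of cluster 6. Cspg4dsRED also had the lowest median depth of the strain labels, with 121646 counts and 2283 genes a cell. The part of depth and of cluster mix in the lower shares of this strain label was not tested. The mean level of Cd34 was highest in cluster 1, at 1397 ± 283 scaled counts (SD over strain labels, n = 4), and lay between 911.5 and 1124 in clusters 3, 5, 6, 8 and 10, where neighbours in the order differed by less than their SD. Cluster 4 followed at 573 ± 176 (n = 4), and clusters 2, 9 and 7 had 132.5 ± 86.1 (n = 5), 131.9 ± 38.6 (n = 4) and 24.2 ± 21.1 (n = 5).

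Ly6a, whose product Sca-1 is a GPI-anchored surface protein, separated the same cells more sharply. It was detected in 92.5% of endomysial, 58.3% of paramysial, 32.3% of cluster 10, 3.05% of perimysial and 2.14% of mural cells, and in endomysial cells of Cspg4dsRED in 64.7%, against 90.9% to 96.7% in the other strain labels. Cluster 1 (895 ± 217 scaled counts, n = 4) and cluster 5 (877 ± 128, n = 3) stood first and did not differ beyond their spread. Clusters 8, 3 and 6 lay between 477.4 and 612.9. Cluster 4 was at 339 ± 86.8, cluster 10 at 105.6 ± 20.7, and clusters 7, 2 and 9 at 30.8, 22.1 and 17.7. Per kilobase of exon, Ly6a had the highest level of the 9 in endomysial cells, at 512 scaled counts, ahead of Dpt (214), Cd34 (147) and Pi16 (82.1). Cd55 (20.9), Hic1 (16.6), Dpp4 (11.6), Thy1 (8.52) and Gli1 (1.70) were much lower on this scale.

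Thy1, which encodes the GPI-anchored protein CD90, was sparse. It was detected in 24.8% of cluster 1 cells, 11.7% of cluster 4, 7.73% of cluster 3, 6.69% of cluster 2 and 0 of 31 cluster 5 cells. Here and below, the share that 0 positive cells allow is taken as 3 over the number of cells, which gives 9.68%. The exact binomial 95% interval for 0 of 31 reaches somewhat higher, to 11.2%. Its mean of 63.2 ± 29.5 scaled counts in cluster 1 overlapped in spread with the 40.1 ± 18.9 of cluster 4.

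**Figure D1:**
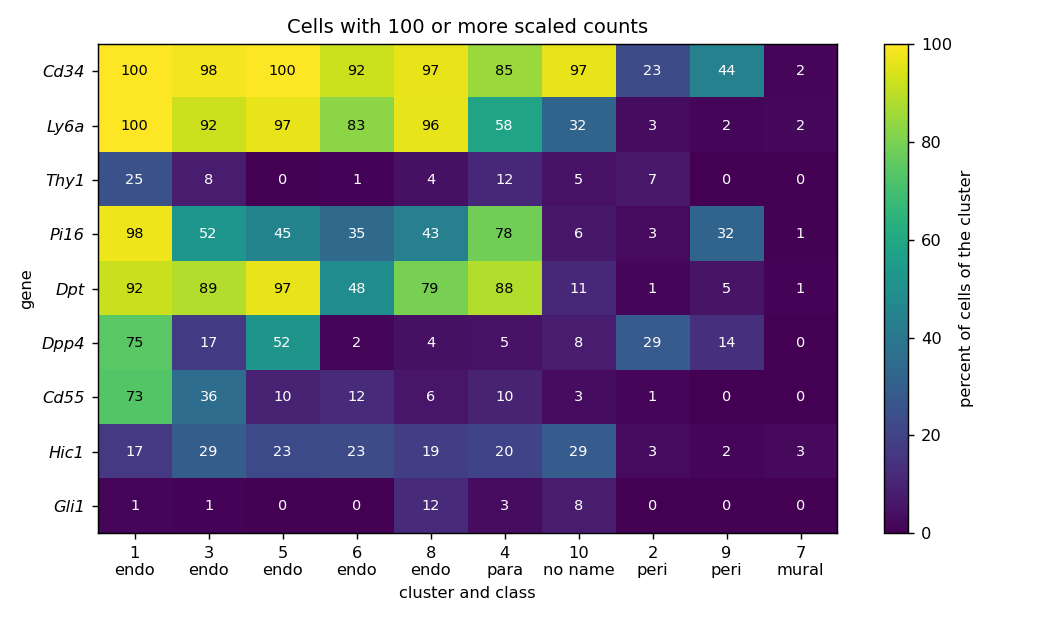
Share of cells with 100 or more scaled counts of each of the 9 genes (rows) in each of the 10 clusters (columns), in percent of the cluster's cells. Cd34 and Ly6a are high across the endomysial columns, Pi16, Dpp4 and Cd55 are highest in cluster 1 (97.5%, 74.5% and 73.3%), and the mural column stays at or below 2.67%.

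The universal fibroblast genes were graded within the endomysium. Pi16, which encodes a secreted or membrane-bound protein of the CAP family, reached 1616 ± 666 scaled counts in cluster 1 (n = 4) and was detected in 97.5% of its cells (95% exact binomial interval 93.8 to 99.3, counting error only). The next clusters were 4 (559.6 ± 258), 5 (430.8 ± 75.9), 3 (413.6 ± 288), 8 (299 ± 214) and 6 (199.6 ± 158), in which neighbours overlapped. The perimysial clusters parted, with 32.2% of cluster 9 and 2.97% of cluster 2 cells positive, at 183 ± 84.9 (n = 4) and 26.8 ± 16.9 (n = 5) scaled counts.

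Dpt encodes dermatopontin, a matrix protein that binds decorin and collagen. As a mean over strain labels it was detected in 97.2% of cluster 5, 91.2% of cluster 1, 88.0% of cluster 3, 77.2% of cluster 8 and 65.6% of cluster 4 cells, where the labels ran from 33.3% to 95.7% and 46 of the 60 cells were of the pool. Cluster 6 was lowest of the endomysial clusters at 44.7%, and clusters 10, 9, 2 and 7 had 10.55%, 5.79%, 1.77% and 0.714%.

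Dpp4, which encodes the surface dipeptidase CD26, had a discontinuous order. Cluster 1 stood at 266 ± 118 scaled counts (n = 4) and cluster 5 at 196.5 ± 52.1 (n = 3), and the next was the perimysial cluster 2 at 93.1 ± 30.6 (n = 5). Cluster 3 followed at 50.4 ± 29.0 and cluster 9 at 37.4 ± 13.9, while clusters 10, 8, 4 and 6 had 21.85, 11.3, 3.85 and 3.80. Perimysial and endomysial cells therefore had similar shares of positive cells, 25.9% and 20.3%. Of the 187 mural cells 0 were positive, which allows up to 1.60%.

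Cd55, whose product on the cell surface limits complement activation, was highest in clusters 1 and 3. It was detected in 73.3% of cluster 1 and 35.7% of cluster 3 cells, in 12.1% of cluster 6, 9.68% of cluster 5 and 5.93% of cluster 8, and outside the endomysium in 10.0% of paramysial and 1.22% of perimysial cells. Cluster 5 thus had Dpp4 (51.6% of cells) with little Cd55.

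The transcription factor genes were found in fewer endomysial cells, Hic1 in 23.7% and Gli1 in 3.315%. Hic1, which encodes a zinc-finger repressor, was detected as a mean over strain labels in 29.1% of cluster 10, 27.2% of cluster 3, 22.4% of cluster 6, 20.2% of cluster 8, 16.0% of cluster 5, 13.5% of cluster 1 and 6.52% of cluster 4 cells. All 12 positive cells of cluster 4 came from the pool, and without it 0 of the cluster's cells were positive. Its means in clusters 10, 3, 6 and 8 ran from 53.2 to 78.7 scaled counts, and neighbours in this order did not differ beyond their SD. In mural cells the mean was 41.5 scaled counts in C57BL6 and 95.4 in the pool, from 2 positive cells of 9 and 2 of 11, and 0.536 to 5.33 in the other 3 strain labels.

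Gli1, an activator and target of hedgehog signalling, was detected in 11.9% of cluster 8 and 8.06% of cluster 10 cells and in at most 3.33% of any other cluster. As a mean over strain labels the order turned, with 15.4% in cluster 10 and 8.89% in cluster 8. In that mean the 8 cluster 10 cells of PdgfrbGFP weigh as much as the 37 of Cspg4dsRED. Its mean was 40.1 ± 39.3 scaled counts in cluster 10 (n = 3) and 21.5 ± 10.1 in cluster 8 (n = 4), which overlapped, and the other 8 clusters were at or below 3.29.

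**Figure D2:**
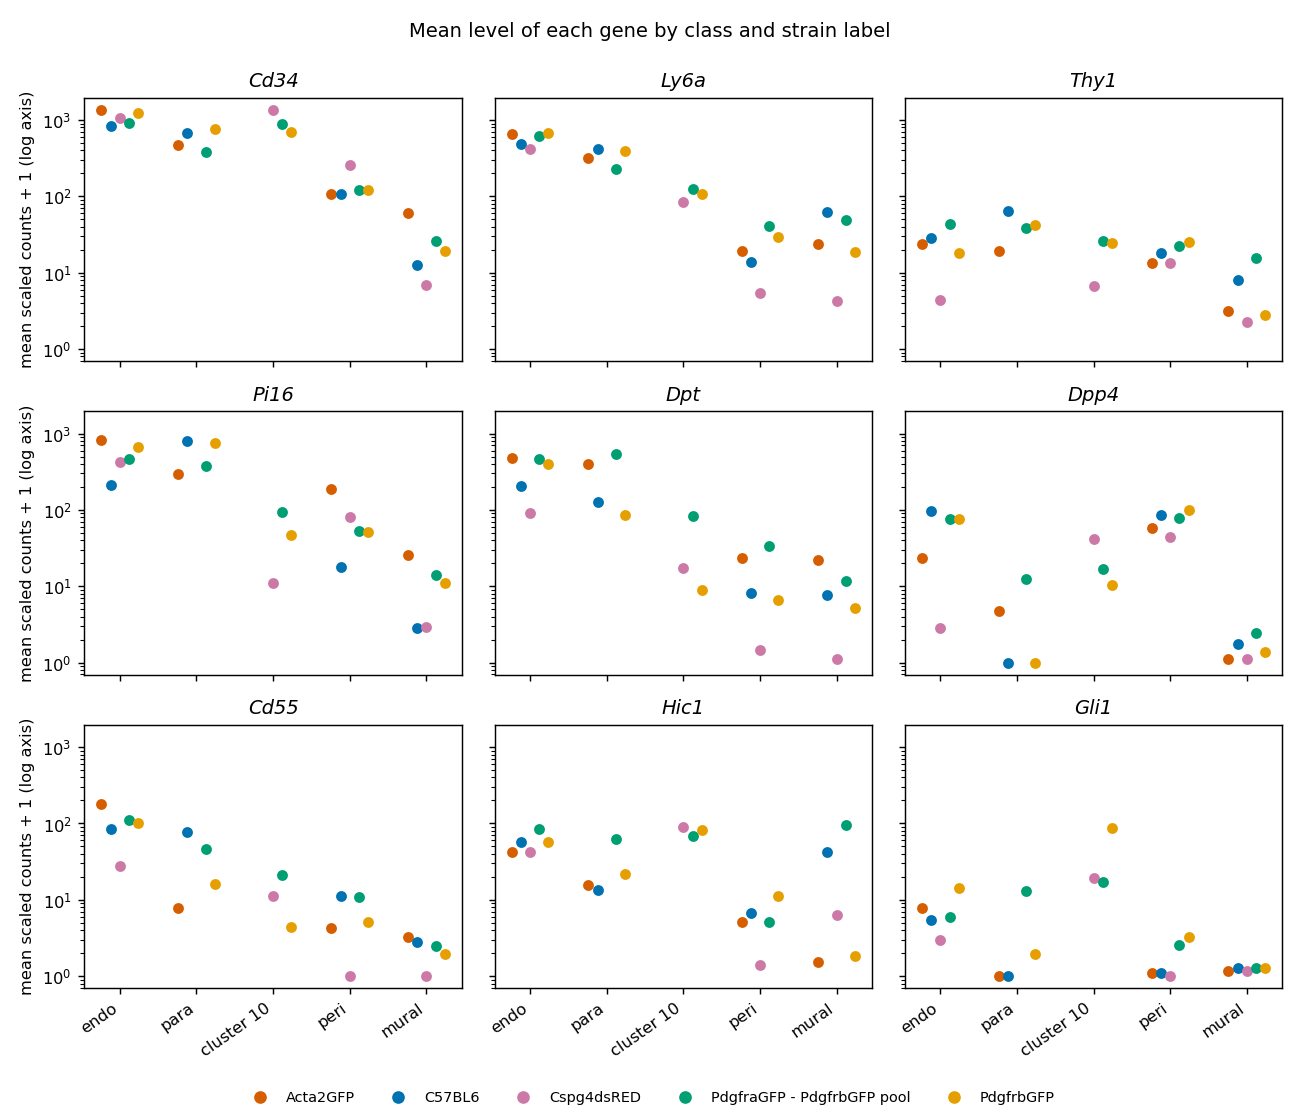
Mean scaled counts per cell, plus 1, of each gene by cell class on a log axis, with 1 point for each strain label with 3 or more cells of the class. Endomysial points of Cd34 (831 to 1346) and Ly6a (417.5 to 684.6) lie above every perimysial point, whereas those of Dpp4 (1.88 to 94.9) overlap with the perimysial range (43.0 to 98.5).

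Mural cells had very little of the progenitor genes. Cd34 averaged 865.3, 527.1, 1027, 782.6 and 1058 scaled counts in the fibroblasts of Acta2GFP, C57BL6, Cspg4dsRED, the pool and PdgfrbGFP and 59.7, 11.8, 6.005, 25.4 and 18.0 in their mural cells. The groups did not overlap. In sums of raw counts per strain label, tested by quasi-likelihood in edgeR with the strain label as a block and Benjamini-Hochberg adjustment, 8 of the 9 genes were lower in mural cells than in all fibroblasts, where 15.4% of all genes tested were called in either direction. Over all genes tested, log2 fold changes had a median of -0.46. The log2 fold changes were -5.58 ± 0.54 (SE) for Cd34 (adjusted p = 3.79e-04 by edgeR), -4.28 ± 0.54 for Ly6a, -5.88 ± 0.46 for Pi16, -5.66 ± 0.74 for Dpt, -6.94 ± 0.61 for Dpp4 and -6.48 ± 0.80 for Cd55. Thy1 (-2.97 ± 0.71) and Gli1 (-4.79 ± 1.03) passed as well. Hic1 did not (-3.16 ± 1.34, adjusted p = 0.169), its mural values of 0.536 to 95.4 overlapping with the 26.9 to 72.9 of fibroblasts. Clusters had been drawn from these same counts, so here and in every comparison between clusters the p-values describe how far the clusters were set apart on these genes. Thy1 lost its call without Acta2GFP, Cspg4dsRED, the pool or PdgfrbGFP and with cells weighted alike, and Gli1 without Acta2GFP or PdgfrbGFP.

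Beside these genes, 11 of 18 tested companions of universal progenitors were lower in mural cells and 0 higher (median -4.49), among them Smpd3 (-7.14), a sphingomyelinase, and Sema3c (-6.53), a secreted guidance cue. Other markers of fibro-adipogenic progenitors gave 8 lower and 1 higher of 13, with Pdgfra at -6.46, and parenchymal or adipogenic genes 9 lower and 2 higher of 20. The surface list gave 3 lower and 1 higher of 7, and Itga7 (6.40), an integrin subunit for laminin, was the gene that rose. Of 13 hedgehog genes tested 4 were lower, including the co-receptors Boc (-5.60) and Cdon (-5.83).

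Perimysial cells had little of most, but not all, of the set. Ly6a averaged 654.5, 483.8, 417.5, 623.6 and 684.6 scaled counts in the endomysial cells of Acta2GFP, C57BL6, Cspg4dsRED, the pool and PdgfrbGFP, and 18.5, 12.98, 4.41, 40.5 and 28.2 in their perimysial cells. Dpp4 averaged 22.4, 94.9, 1.88, 75.4 and 75.9 in endomysial and 56.1, 84.4, 43.0, 77.9 and 98.5 in perimysial cells. The 2 groups did not overlap for Ly6a and overlapped for Dpp4, which was higher in the perimysial cells of 4 of 5 strain labels. Of the 9 genes, 6 were lower in perimysial cells and 0 higher by quasi-likelihood in edgeR (Benjamini-Hochberg adjusted p under 0.05), against 5.57% of all genes called. These were Ly6a (-5.08 ± 0.42, SE), Dpt (-5.05 ± 0.60), Cd55 (-4.70 ± 0.71), Hic1 (-3.65 ± 0.63), Cd34 (-2.74 ± 0.24) and Pi16 (-2.72 ± 0.35), beside a median of -0.19 over all genes. The other 3 did not pass, with Dpp4 at 1.11 ± 0.75 (adjusted p = 0.574), Thy1 at -0.07 ± 0.47 (adjusted p = 0.963) and Gli1 at -3.91 ± 0.95 (adjusted p = 0.0623). Of the 51 endomysial cells of Cspg4dsRED, where Dpp4 was lowest, 46 belonged to cluster 6, and Hic1 lost its call without Acta2GFP, C57BL6 or the pool.

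The companion genes were lower as well, 8 of 19 with 0 higher, among them Efhd1 (-5.92), a mitochondrial calcium-binding protein, and the hyaluronan synthase Has1 (-5.35). Parenchymal and adipogenic genes gave 11 lower of 18 and 0 higher, with the enkephalin precursor Penk at -5.35 and Smoc2 at -4.24. Of the other progenitor markers 7 of 13 were lower and 1 higher, led by the transcription factor Osr1 (-6.31). Among 7 other surface genes 3 rose and 3 fell, with Ncam1 (4.48) and Nt5e (4.00), the ecto-5'-nucleotidase CD73, higher and Procr (-6.35), the endothelial protein C receptor gene, lower. In the hedgehog list Scube2 rose (7.90), a secreted protein that helps release the ligand, and Gli3 was among those that fell (-2.36).

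**Figure D3:**
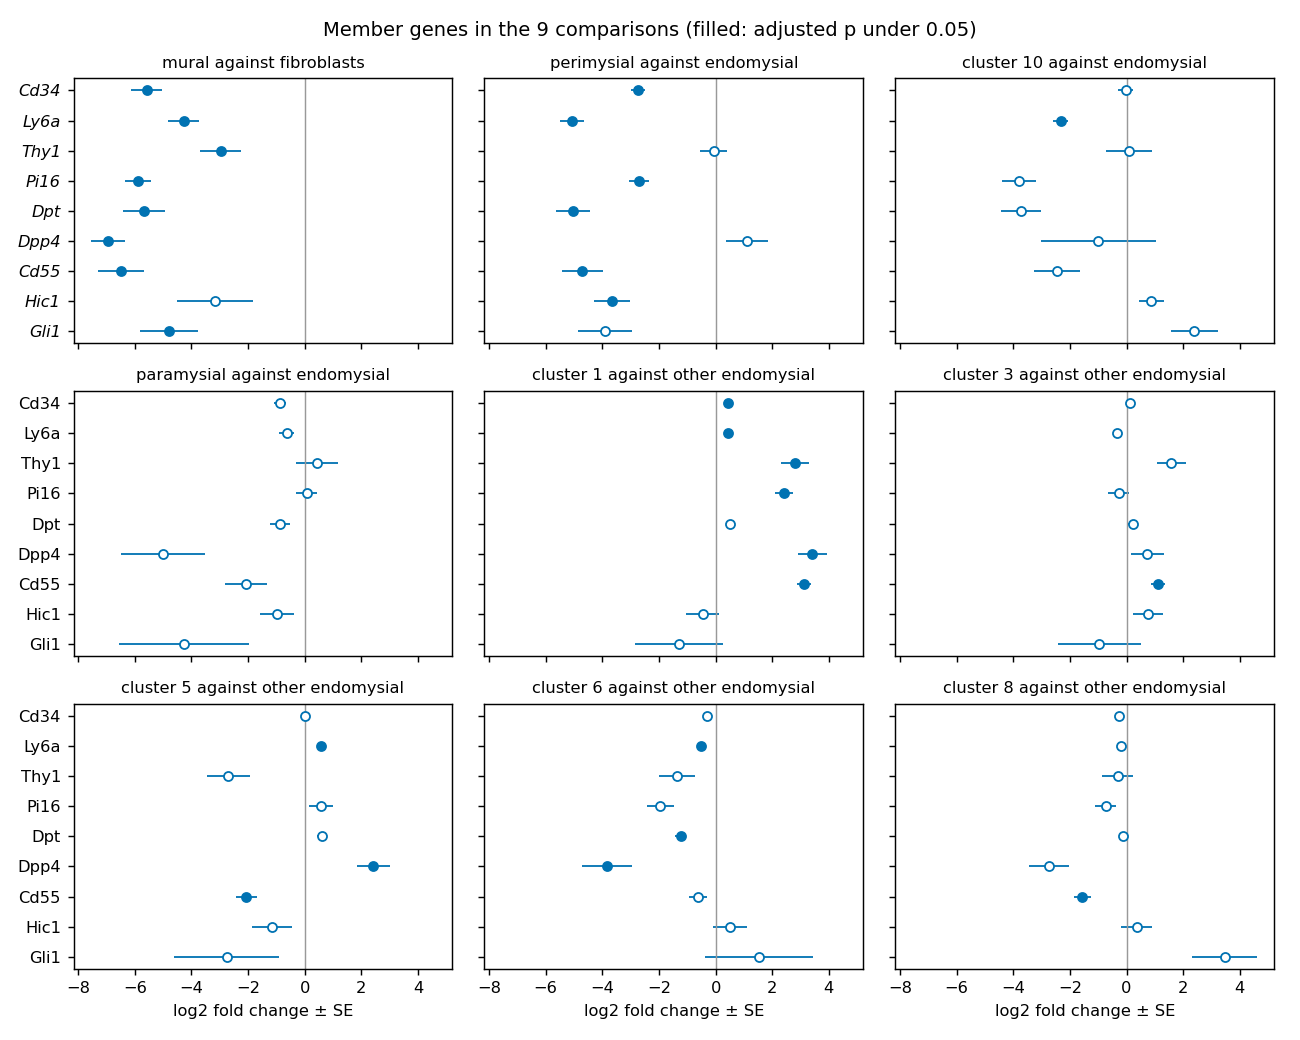
Log2 fold change of each gene in the 9 comparisons, with bars of 1 SE, filled points for adjusted p under 0.05 and a grey line at no change. In perimysial cells Dpp4 (1.11) and Thy1 (-0.07) sit apart from the other genes, and in cluster 1 Dpp4 (3.41), Cd55 (3.13), Thy1 (2.79) and Pi16 (2.40) lie far to the right.

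Paramysial cells overlapped with endomysial cells in Pi16 and Dpt and lay below them in Cd34 and Dpp4. Cd34 averaged 475.7, 683.8, 378.4 and 754.9 scaled counts in the paramysial cells of Acta2GFP, C57BL6, the pool and PdgfrbGFP, and 1346, 831, 916.5 and 1231 in their endomysial cells. Pi16 averaged 298.1, 809.1, 380 and 751 in paramysial and 816.5, 210, 468.5 and 662.1 in endomysial cells. The order of the 2 classes in Pi16 thus differed between strain labels. Dpt averaged 396.8, 125.7, 537.4 and 84.6 against 483.1, 206.3, 460.7 and 395.2, and was above the endomysial value in the pool alone. Dpp4 averaged 3.79, 0.00, 11.6 and 0.00 against 22.4, 94.9, 75.4 and 75.9. Every paramysial value of Cd34 and of Dpp4 lay below every endomysial one of these strain labels. None of the 9 genes was called by edgeR's quasi-likelihood test (0 called and 14 of all 14533 genes, or 0.0963%, with 981 at an unadjusted p under 0.05), with Dpp4 at -5.01 ± 1.48 (SE, adjusted p = 0.389), Cd34 at -0.88 ± 0.20 (adjusted p = 0.306), Cd55 at -2.07 ± 0.75 and Pi16 at 0.06 ± 0.37. Ly6a was at -0.63 ± 0.27, Thy1 at 0.43 ± 0.75, Dpt at -0.87 ± 0.36, Hic1 at -0.99 ± 0.61 and Gli1 at -4.26 ± 2.31. DESeq2 called 1 of the 9 and 5.42% of all genes. In all 5 support lists 0 genes were called. The 60 paramysial cells were 46 of the pool, 6 of Acta2GFP, 4 of PdgfrbGFP and 3 of C57BL6, with 1 of Cspg4dsRED left out, and the median over all genes was -0.86.

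Cluster 10 differed from endomysial cells in Ly6a, while Cd34 overlapped. Ly6a averaged 83.8, 125 and 108 scaled counts in cluster 10 cells of Cspg4dsRED, the pool and PdgfrbGFP, against 417.5, 623.6 and 684.6 in their endomysial cells. The values of Ly6a did not overlap. Cd34 averaged 1361, 898.7 and 689.2 against 1058, 916.5 and 1231, and these overlapped. Ly6a was the 1 gene of the 9 that edgeR's quasi-likelihood test called (-2.33 ± 0.26, SE, adjusted p = 0.0295), where 0.442% of all genes were called. Cd34 was at -0.02 ± 0.26, Thy1 at 0.09 ± 0.82, Dpp4 at -0.99 ± 2.03, Cd55 at -2.47 ± 0.82, Pi16 at -3.81 ± 0.60 (adjusted p = 0.0795), Dpt at -3.73 ± 0.71 (adjusted p = 0.150), Hic1 at 0.87 ± 0.44 and Gli1 at 2.39 ± 0.82 (adjusted p = 0.437). Without PdgfrbGFP, which gave 8 of the 62 cells, Ly6a was no longer called, and 0 genes were called in all (803 at an unadjusted p under 0.05). DESeq2 called 5 of the 9, 4 lower and 1 higher, and 8.07% of all genes.

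Of the companions in cluster 10, Pcolce2 (-6.90), an enhancer of procollagen processing, and Ly6c1 (-4.74), a neighbour of Ly6a in its family, fell, and the morphogen gene Bmp7 rose (3.77), of 19 tested. Of the parenchymal list Fmo2 fell (-6.51) and the lipocalin Apod rose (2.44), of 19, and of the other progenitor markers Gdf10 fell (-7.57), of 13. In the surface list 0 of 6 and in the hedgehog list 0 of 11 were called. The 3 class comparisons above share the endomysial cells as reference.

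Within the endomysium, cluster 1 was where the universal progenitor genes met. Each cluster was set against the mean of the other 4 endomysial clusters in 1 fit over 19 sums. Pi16 averaged 1740, 847.2, 1431 and 2446 scaled counts in cluster 1 of Acta2GFP, C57BL6, the pool and PdgfrbGFP. In the other endomysial clusters of the same strain labels it lay between 18.6 and 764.9, below every cluster 1 value. Cd55 averaged 668.8, 242.4, 344.6 and 360.8 in cluster 1 and 7.81 to 149.9 elsewhere, which did not overlap either. Dpp4 averaged 97.0, 340.9, 271.2 and 353.2 in cluster 1, and its range overlapped with cluster 5 (139.4 to 241.5). Of the 9 genes, 6 were higher in cluster 1 by quasi-likelihood in edgeR (Benjamini-Hochberg adjusted p under 0.05), against 2.95% of all genes called. They were Dpp4 (3.41 ± 0.51, SE), Cd55 (3.13 ± 0.24), Thy1 (2.79 ± 0.49), Pi16 (2.40 ± 0.32), Cd34 (0.45 ± 0.08) and Ly6a (0.44 ± 0.10), while Dpt (0.52 ± 0.16, adjusted p = 0.102), Hic1 (-0.46 ± 0.58) and Gli1 (-1.28 ± 1.56) did not pass. Pi16, Dpp4 and Cd55 were called under all 12 alternative settings, Cd34 lost its call without C57BL6, Thy1 without the pool, and Ly6a without Acta2GFP, the pool or PdgfrbGFP and with at least 10 cells in a sum. With no replicate block, 4 of the 9 were called.

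The companion list rose almost as a whole in cluster 1, with 18 of 20 genes higher, 0 lower and a median of 2.82 beside 0.07 over all genes. Dact2 (8.93), a regulator of Wnt and TGF-beta signalling, Sbsn (5.12), Bmp7 (5.02) and Cmah (4.72), a sialic acid hydroxylase that is a pseudogene in humans, led it. The lists were chosen with earlier results of these data known, and the clusters were drawn from these counts. Such a rise therefore describes the cluster and is no separate support for its identity. Parenchymal and adipogenic genes fell in 8 of 20 cases and rose in 0, with Cxcl14 (-4.18), the basement membrane collagen Col15a1 (-3.88), the adhesion molecule Icam1 (-2.69) and Smoc2 (-2.64). Of the other progenitor markers Osr2 rose (1.34), and Gdf10 (-3.21), Lum (-1.21) and Ltbp4 (-0.84) were among 4 of 13 that fell. Procr (3.15) and Cd248 (1.26) rose and Cd44 (-1.17) fell in the surface list of 7. In the hedgehog list Boc (-2.31) and Gas1 (-1.67), both co-receptors, fell, of 13.

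Cluster 5 shared part of this pattern. Ly6a averaged 777.7, 1022 and 831.4 scaled counts in its cells of C57BL6, the pool and PdgfrbGFP, and Cd55 averaged 30.9, 7.81 and 14.2. Dpp4 averaged 208.5, 241.5 and 139.4. These Dpp4 values were above those of clusters 3, 6 and 8 in every strain label. By edgeR's quasi-likelihood test Ly6a (0.58 ± 0.11, SE) and Dpp4 (2.42 ± 0.58) were higher and Cd55 (-2.06 ± 0.36) was lower, 3 of the 9, where 3.75% of all genes were called and the median was -0.57. The others did not pass, with Cd34 at 0.01 ± 0.09, Thy1 at -2.69 ± 0.75, Pi16 at 0.57 ± 0.42, Dpt at 0.61 ± 0.17, Hic1 at -1.16 ± 0.71 and Gli1 at -2.76 ± 1.85. The cluster holds 31 cells, 3 of them of the pool, and 0 of the 9 genes were called without the pool and 1 without C57BL6. Among the lists, companions had 2 higher and 1 lower, parenchymal genes 2 higher and 5 lower (Cebpa, an adipogenic transcription factor, at -10.98), other progenitor markers 1 each way, the surface list 1 higher (Nt5e at 2.83) and the hedgehog list 2 higher (Cdon at 1.83 and Gas1 at 1.28).

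Cluster 6 lay at the low end for the universal genes. Dpt averaged 82.0, 65.9, 270.4 and 244.8 scaled counts in cluster 6 of C57BL6, Cspg4dsRED, the pool and PdgfrbGFP, the lowest of the endomysial clusters in each of the 3 strain labels that had others. Dpp4 averaged 1.36, 2.09, 1.73 and 10.0. By edgeR's quasi-likelihood test Dpp4 (-3.84 ± 0.89, SE), Dpt (-1.24 ± 0.20) and Ly6a (-0.51 ± 0.11) were lower, 3 of the 9, beside 1.77% of all genes called, and Pi16 was at -1.96 ± 0.47 (adjusted p = 0.0517). Cd34 was at -0.32 ± 0.09, Thy1 at -1.36 ± 0.65, Cd55 at -0.62 ± 0.32, Hic1 at 0.52 ± 0.61 and Gli1 at 1.54 ± 1.91. Without the pool 0 were called, and without C57BL6 or PdgfrbGFP 1 each. Companions fell in 7 of 20 cases and rose in 0, with Emilin2 (-2.99), Anxa3 (-2.97) and fibronectin Fn1 (-2.93). Parenchymal genes rose in 2 of 20, the surface list gave Itga7 (6.28) and the hedgehog list Boc (2.02) as higher, and 0 of 13 other progenitor markers passed.

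Clusters 3 and 8, the most numerous of the endomysial clusters, differed from each other in Cd55. It averaged 149.9, 119.3, 79.7 and 102.2 scaled counts in cluster 3 of Acta2GFP, C57BL6, the pool and PdgfrbGFP, and 62.1, 18.0, 29.6 and 16.8 in cluster 8. Every cluster 3 value was above every cluster 8 value. Against the mean of the other endomysial clusters Cd55 was the 1 called gene in each, higher in cluster 3 (1.11 ± 0.25, SE, adjusted p = 0.0373 by edgeR, 1.57% of all genes called) and lower in cluster 8 (-1.56 ± 0.30, adjusted p = 0.0165 by edgeR, 1.58% called). Both calls were lost without the block and when Acta2GFP, C57BL6, the pool or PdgfrbGFP was left out, and that in cluster 3 also with RLE size factors, with at least 10 cells in a sum and with cells weighted alike. Gli1 averaged 19.0, 10.8, 21.0 and 35.2 scaled counts in cluster 8 of these strain labels and at most 6.22 in any other endomysial cluster, which did not overlap, yet it was not called (3.46 ± 1.14, adjusted p = 0.185). In cluster 3 Cd34 was at 0.13 ± 0.08, Ly6a at -0.33 ± 0.10, Thy1 at 1.58 ± 0.50, Pi16 at -0.27 ± 0.37, Dpt at 0.22 ± 0.16, Dpp4 at 0.74 ± 0.58, Hic1 at 0.75 ± 0.54 and Gli1 at -0.96 ± 1.46. In cluster 8 Cd34 was at -0.27 ± 0.08, Ly6a at -0.18 ± 0.10, Thy1 at -0.32 ± 0.55, Pi16 at -0.74 ± 0.38, Dpt at -0.12 ± 0.16, Dpp4 at -2.74 ± 0.70 and Hic1 at 0.36 ± 0.56.

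In cluster 3 the parenchymal list had 5 of 20 genes higher and 0 lower, the other progenitor markers 3 of 13 higher (Mme, the neprilysin gene, at 4.25), companions 2 higher and 1 lower, surface genes 1 each way and hedgehog genes 0 of 13. In cluster 8 the parenchymal list gave 4 higher and 0 lower, with Fmo2 (3.36), the tissue factor gene F3 (1.98) and Cxcl14 (1.93). Of the other progenitor markers 3 rose, with Gdf10 at 3.88, and Osr2 fell (-2.55), and of the companions the chemokine receptor Ackr3 fell (-1.24). In the hedgehog list Hhip, which encodes a decoy receptor and is a target of the pathway, rose in cluster 8 (6.95), and in the surface list 0 passed.

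Co-detection was counted in the 1116 endomysial cells, and each observed number was set against that expected if the genes were independent within a strain label. A ratio was taken where at least 1 cell was expected. Dpp4 and Cd55 were found together in 134 cells where 65.4 were expected, with ratios of 1.5, 2.31, 1.92 and 2.09 in Acta2GFP, C57BL6, the pool and PdgfrbGFP. Pi16 and Dpp4 shared 176 cells against 117 expected, at 1.18, 2.26, 1.45 and 1.35, and Pi16 and Cd55 shared 242 against 179.4, at 1.10, 1.74, 1.79, 1.45 and 1.29 with Cspg4dsRED as the third. All of these ratios exceeded 1, but some rested on few cells. In Acta2GFP, Dpp4 and Cd55 shared 3 cells against 2.0 expected, and Pi16 and Dpp4 shared 4 against 3.4. In Cspg4dsRED, Pi16 and Cd55 shared 2 cells against 1.118 expected. Thy1 with Pi16 also had ratios above 1 in 4 of 4 strain labels (mean 1.29 ± 0.22, SD), with 3 cells against 2.55 expected in Acta2GFP. These were the 4 of 36 pairs with a mean of 1.2 or more and every ratio above 1. Thy1 with Dpp4 had the highest mean, 2.27 ± 1.39, but ranged from 0.731 to 3.42 over 3 strain labels.

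Most of the excess lay between clusters. With the expectation taken within each cluster and strain label, the pooled ratio fell to 1.16 for Dpp4 with Cd55, 1.07 for Pi16 with Dpp4 and 1.10 for Pi16 with Cd55. The values that follow are again within strain labels alone. Cd34 and Ly6a, present in nearly all endomysial cells, gave mean ratios of 0.969 to 1.09 with each other and the rest. Hic1 had 0.881 to 1.01 with Pi16, Dpp4, Cd55 and Cd34. Gli1 and Dpp4 were found together in 0 cells where 7.58 were expected, and Gli1 and Cd55 in 5 where 10.96 were. As means over strain labels, cluster 8, highest of the endomysial clusters in Gli1 (8.89% of cells), had Dpp4 in 4.67% and Cd55 in 10.1%. These counts therefore do not show whether the genes exclude each other within a cluster.

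**Figure D4:**
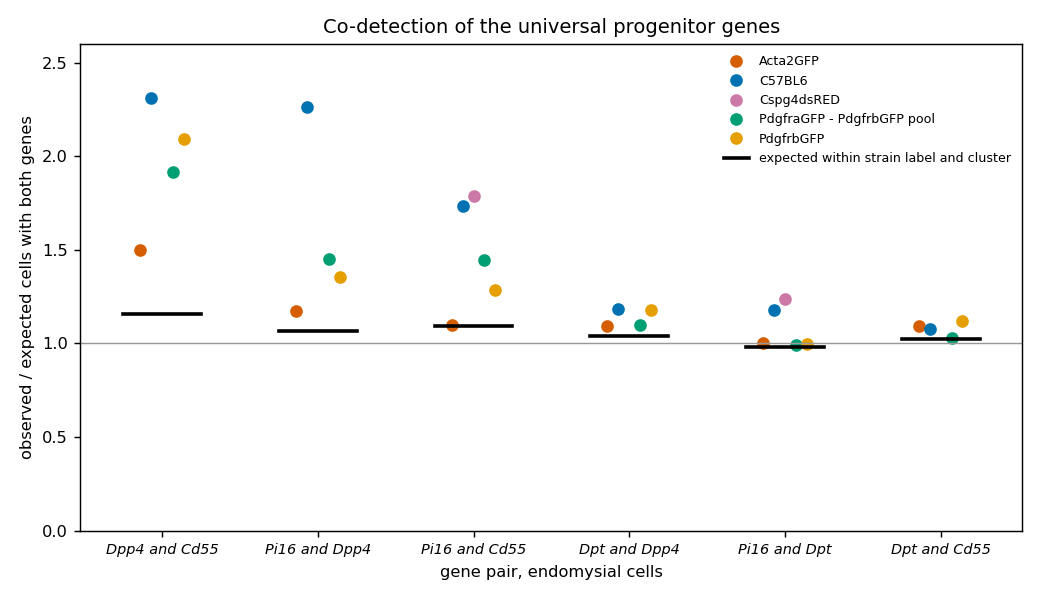
Ratio of observed to expected co-detection for the pairs among Pi16, Dpt, Dpp4 and Cd55 in endomysial cells. Points are strain labels with at least 1 expected cell, and black bars are the pooled value within clusters and strain labels. Dpp4 with Cd55 runs from 1.5 to 2.309 over strain labels and stands at 1.16 within clusters.

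Joint profiles sorted the classes. Cd34 and Ly6a together were detected in 1010 of 1116 endomysial cells (90.5%, by strain label 51.0% in Cspg4dsRED and 88.0% to 95% in the others), in 161 of 161 cluster 1 cells, in 56.7% of paramysial, 32.3% of cluster 10, 1.83% of perimysial and 0.535% of mural cells. Cd34 without Ly6a was the commoner state in cluster 10 (64.5%) and in perimysial cells (24.7%). Pi16, Dpp4 and Cd55 were detected together in 116 cells, all endomysial, of which 89 were in cluster 1 (55.3% of that cluster), 24 in cluster 3, 2 in cluster 6 and 1 in cluster 5. In perimysial cells 0 of 328 had all 3, which allows a share of up to 0.915%, and the limit was 5.00% for paramysial, 1.60% for mural and 4.84% for cluster 10 cells.

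Dpp4 without Pi16 was found in 24.4% of perimysial cells, and Pi16 without Dpp4 in 73.3% of paramysial cells. Of the 9 genes a cluster 1 cell had 5.80 on average, cells of clusters 3 and 5 had 4.23, cluster 8 had 3.61, cluster 4 3.60, cluster 6 2.96, cluster 10 2.00, perimysial cells 0.753 and mural cells 0.0802. At least 6 were detected in 64.6% of cluster 1 and 12.7% of cluster 3 cells. Hic1 and Gli1 were found in the same cell 5 times in the endomysium.

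Pi16 differed between muscles within cluster 3. In the pool it was detected in 89.4% of 47 soleus and 36.2% of 116 gastrocnemius cells, and in PdgfrbGFP in 86.3% of 51 and 42.1% of 19. Mean levels were 613.6 against 183 and 986.3 against 217.6 scaled counts. Both strain labels pointed the same way. The difference was not tested, and in the pool each muscle lay on a plate of its own, so muscle and plate cannot be told apart there. In cluster 1 of the pool 100% of soleus and 96.9% of gastrocnemius cells had Pi16, against 40.7% and 26.9% in its cluster 6 and 53.8% and 35.3% in its cluster 8. PdgfrbGFP had 61.5% of soleus and 52.2% of gastrocnemius cells positive in cluster 6, with 38.5% and 38.3% in cluster 8. Soleus was the higher muscle in each of these. Dpt in cluster 3 was at 93.6% against 90.5% in the pool and 82.4% against 84.2% in PdgfrbGFP, and Cd55 at 38.3% against 28.4% and 35.3% against 15.8%.

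**Figure D5:**
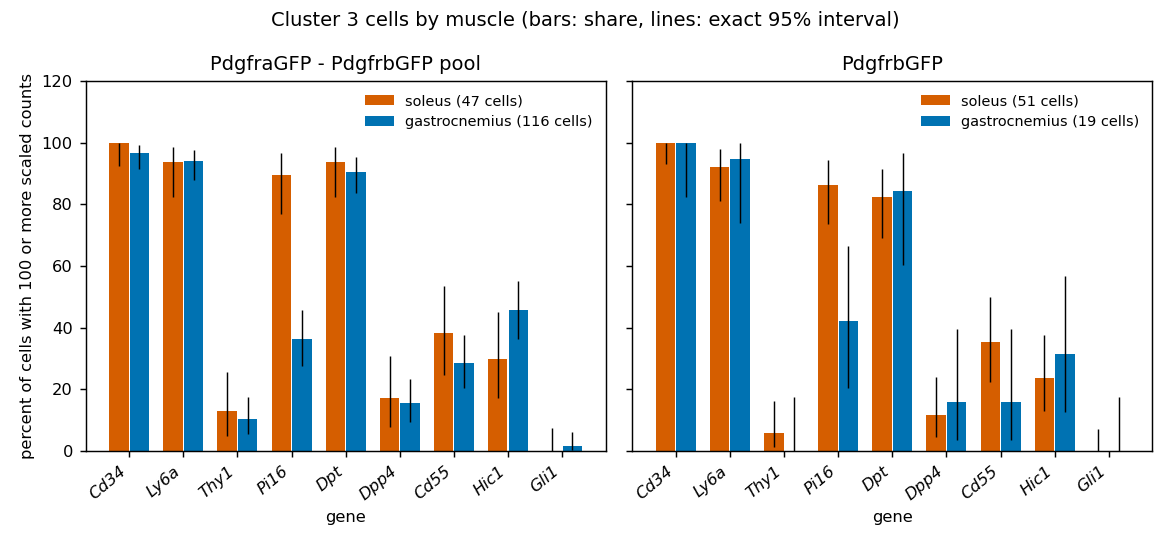
Share of cluster 3 cells with each of the 9 genes in soleus and gastrocnemius, for the pool and PdgfrbGFP, with 95% exact binomial intervals that cover counting error only. Pi16 shows the widest gap, 89.4% against 36.2% and 86.3% against 42.1%.

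The genes most like each of the 9 were taken by Pearson's r of log2(scaled counts + 1) over 40 means of a cluster in a strain label, among 5163 genes. These points share cells, depth and libraries between genes, so r is a description. For Cd34 they were Gm16897 (0.992), which is the antisense gene that overlaps it, Htra3 (0.944), a serine protease, and Steap3 (0.935). Ly6a was closest to Xdh (0.947), Col14a1 (0.931) and Dpt (0.929), and Dpt to Ly6a, Ly6c1 (0.915) and Ifi205 (0.905). Pi16 had Fstl1 (0.843), Mfap5 (0.83) and Emilin2 (0.824), of which the last pair belong to the companion list. Cd55 had Pla1a (0.861), Tnfaip2 (0.845) and Uap1 (0.834), and Dpp4 had Sema3b (0.758), Npr1 (0.743), a receptor for natriuretic peptides, and Tgfbr3 (0.705).

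For Hic1 the closest were G0s2 (0.83), an inhibitor of lipolysis, the eotaxin gene Ccl11 (0.777) and the alcohol dehydrogenase Adh1 (0.760). Thy1 had no close match, with Lamb1 (0.651), Klf2 (0.643) and Il33 (0.628). Gli1, whose mean lay under 20 scaled counts, was nearest to Cp (0.697), Sox9 (0.694) and Gpc3 (0.691).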

How the data were processed

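The authors deposited raw counts of reads per gene and cell, made with bcl2fastq, trim galore, TopHat2 on GRCm38 and featureCounts, and dropped possible doublets through the sort gate and an upper limit on genes. No doublet caller was run here. The annotation release and the use of strand are not given in the sources used here. Reads carry no molecular identifiers, so intervals and limits cover counting error only. The table had 1754 columns, of which 1 matched no label and was not used. Spike-ins, 1.31% of counts, were left out.

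Raw counts were summed per class, or per endomysial cluster, within a strain label of at least 3 cells. Tests used edgeR 4.0.16 (TMM, filterByExpr, quasi-likelihood, strain label as a block) in R 4.3.3, with Benjamini-Hochberg adjustment over all genes tested and a threshold of 0.05. The script was tested on simulated counts. Alternatives were DESeq2 1.42.0, RLE size factors, no filter, no block, the plate as unit, at least 10 cells, cells weighted alike and each strain label left out. The block rests on cells of a label sharing mice or plates, and deviations from the class means correlated within a label at 0.0828 to 0.237 (mural), 0.132 to 0.319 (perimysial), 0.054 to 0.108 (paramysial) and 0.109 to 0.209 (cluster 10). Since no label names an animal, p-values measure how evenly a difference between classes or clusters repeated across strain labels. Differences in level between strain labels are taken up by the block. The pool and PdgfrbGFP may share a mouse.

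All 9 genes are named in each comparison, with up to 4 called genes of largest change from each of 5 support lists (progenitor companions, parenchymal and adipogenic genes, other markers of fibro-adipogenic progenitors, other surface genes and the hedgehog pathway) and the 3 genes of most similar pattern. The genes and lists were chosen with earlier results of these data known. Depth per cell ran from 46097 to 1055869 counts. A result of the hedgehog list in perimysial cells is not reported here.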

Additional observations from a re-analysis of the deposited data

Results flagged for a closer look

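Of 36 sets of strain labels looked at, 3 held a value farther from the others than Dixon's limit allows, and chance alone gives about 1 in 20. Cd34 averaged 256.3 scaled counts in perimysial cells of Cspg4dsRED, where the other 4 strain labels had 106.2 to 121.3. It was detected in 5 of these 18 cells. Hic1 averaged 61.3 scaled counts in paramysial cells of the pool, where the other 3 labels had 12.7 to 20.7, and was detected in 12 of its 46 cells. Gli1 averaged 12.2 scaled counts in the same cells, from 2 positive cells, where the others had 0.00 to 0.943. The pool gave 46 of the 60 paramysial cells, and the part of cell number and of plate in these values was not tested.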

How the results depend on the processing

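With one strain label left out in turn, the number of the 9 genes called ranged from 6 to 8 in mural cells (8 with all), 5 to 6 in perimysial cells (6), 0 to 1 in paramysial cells (0), 0 to 4 in cluster 10 (1), 4 to 6 in cluster 1 (6), 0 to 1 in cluster 3 (1), 0 to 4 in cluster 5 (3), 0 to 4 in cluster 6 (3) and 0 to 1 in cluster 8 (1). DESeq2 called 1 in paramysial cells, 5 in cluster 10, 2 in cluster 3, 5 in cluster 5 and 2 in cluster 8, and it called between 4.95% and 31.2% of all genes tested over the 9 comparisons. With no filter on low counts 1 was called in paramysial cells and 3 in cluster 10, and with RLE size factors 0 in cluster 3. With the plate as unit 3 were called in cluster 3, 5 in cluster 5, 5 in cluster 6 and 4 in cluster 8, with at least 10 cells 0 in cluster 10 and 0 in cluster 3, and with cells weighted alike 0 in cluster 3, 5 in cluster 5 and 2 in cluster 8. Without the replicate block 0 were called in cluster 3, 0 in cluster 8, 2 in cluster 5, 2 in cluster 6 and 4 in cluster 1, and the numbers for the 4 class comparisons were the same as with it. The paramysial comparison could not be fitted with at least 10 cells. The causes were not tested.

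Some log2 fold changes that were not called turned in sign. In cluster 10, Cd34 was at 0.11 with RLE size factors and with DESeq2, 0.08 without the block and by plate, and 0.29 with at least 10 cells (-0.36 to 0.29 over the left-out labels). Thy1 there was at -0.02 without the filter, -0.07 without the block and -0.08 by plate (-0.10 to 0.28), and Dpp4 at 1.68 with at least 10 cells (-2.63 to 1.68). In cluster 5, Cd34 was at -0.02 without the filter, -0.14 without the block, -0.08 by plate and -0.13 with at least 10 cells (-0.13 to 0.17), and Pi16 at -0.28 without the block (-0.39 to 1.07). Pi16 in paramysial cells was at -0.06 without the filter and -0.01 without the block (-0.45 to 0.38), Gli1 in cluster 6 at -0.83 without the block (-2.19 to 4.22), and Thy1 in perimysial cells at 0.02 with cells weighted alike (-0.32 to 0.20). Over the left-out labels alone, Pi16 (-0.41 to 0.05) and Gli1 (-1.38 to 0.31) turned in cluster 3, and Thy1 (-1.02 to 0.06) and Dpt (-0.32 to 0.05) in cluster 8. RLE size factors moved the median of all genes from -0.41 to -0.27 in cluster 10 and from -0.57 to -0.47 in cluster 5.

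Of 90 shares of a gene in a cluster, 24 were above 50% at 100 scaled counts, 58 at 1 raw count, 31 at 20 scaled counts and 25 after each cell was thinned to 50000 counts. The number of pairs co-detected above expectation in every strain label was 4, against 0 at 1 raw count, 5 at 20 scaled counts and 5 after thinning. Paramysial cells (60), cluster 5 (31) and cluster 10 (62) are few, which limits the precision there. Their median counts per cell were 595321, 329547 and 187616.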
